A study of Homo sapiens with 60 samples.

Results

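The 31 genes described here make cholesterol and fatty acids, or control that synthesis through the sterol regulatory element-binding proteins (SREBPs). They were taken by symbol from a table of 29744 genes, and all 31 were found and passed the filter on low counts that left 11298 genes for testing. By role, 7 act in the mevalonate pathway, 3 lead from farnesyl diphosphate through squalene to lanosterol, 7 turn lanosterol into cholesterol, 3 regulate the pathway, 2 move or bind sterols and 9 make, activate or modify fatty acids. The RNA came from spheroids of HCT116, an established human colorectal cancer cell line, and each library counts the 3' ends of transcripts with unique molecular identifiers.

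Cells sense cholesterol in the membrane of the endoplasmic reticulum. When it is scarce, the escort protein SCAP carries the SREBP precursors to the Golgi, where proteases release a transcription factor that switches on sterol and fatty acid genes. When sterols are plentiful, the INSIG proteins hold SCAP back, and the program falls. SREBF2 encodes the form that mainly drives cholesterol genes, and SREBF1 encodes forms that mainly drive fatty acid genes. INSIG1 is itself a target, so its RNA is often read beside those of the enzymes.

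The 60 libraries form 12 groups of 5, with 6 treatments in each of the media that the labels name Medium 1 and Medium 2. Spheroids were left untreated or were given, from day 1 to day 8, 1 µM butyrate, 0.1 µM hemin, 1 µM of kynurenine or of kynurenic acid, or both hemin and kynurenine in those amounts. Butyrate is a short-chain fatty acid of gut bacteria, hemin is oxidised heme, and kynurenine and kynurenic acid are products of tryptophan breakdown. According to the series design, RNA was taken at once or after 3 h in a medium short of nutrients, but the titles do not say which medium that is, and the one label that mentions nutrients describes all 60 libraries as untreated and nutrient-rich, against their titles. Every group is the same cell line grown in DMEM with 10% fetal bovine serum, which is itself a source of lipids, and the titles call the 5 libraries of a group biological replicates without saying whether they came from separate cultures. The p-values measure the spread between these libraries.

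Libraries held 1346135 to 3083231 counts, and levels are given as CPM, counts scaled by each library's total and its TMM factor. Libraries are named by the plate well in the table's column names, and the wells of each group follow one another on the plate, so that medium or treatment and plate position cannot be told apart. Wells B2 (butyrate, Medium 1) and A7 (kynurenine, Medium 2) had stood far from their group means in an earlier analysis of these data, and counts of calls are given with and without them where they differ. Of 8 markers of colon epithelium, 6 were well expressed, EPCAM among them at means of 367 and 377 CPM in Medium 1 and Medium 2, while VIL1 was at 0 and LGALS4 at no more than 0.488 CPM. Among 14 listed markers of other cell types found in the table, COL1A1 alone passed the filter, at 9.04 and 4.06 CPM, and COL1A2, COL3A1, CD3E and ADIPOQ were at 0 in every library.

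The members spanned a wide range of levels. SCD, which makes monounsaturated fatty acids, was the most abundant at 1497 ± 140.4 CPM (mean ± SD, n = 60 libraries), followed by the fatty acid synthase FASN at 572 ± 81.5 and the squalene synthase FDFT1 at 524 ± 80.0. The least abundant were MVD, an enzyme late in the mevalonate pathway, at 10.1 ± 4.52 CPM and the desaturase FADS2 at 7.34 ± 2.82. MVD had 6 to 49 counts per library and FADS2 5 to 32, so both were measured far less precisely than SCD, with 1823 to 4620. Because only transcript ends are counted, a longer transcript does not gain counts, and CPM was not divided by length. How evenly the ends of different genes were captured and mapped was not measured, so the order of levels between genes is approximate. HSD17B7 had fractional counts in 96.7% of libraries and no other member had any, so its reads are shared with another sequence and its values are uncertain.

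The first comparison asked how the media differed once the 6 treatments were averaged, with 30 libraries in each medium. Of the 31 members, 13 were higher in Medium 2 and 6 lower (adjusted p below 0.05; every adjusted p given here, unless DESeq2 is named, is from the quasi-likelihood test of edgeR and was adjusted by Benjamini and Hochberg's method over all tested genes). Over all tested genes 46.1% were called, 22.8% higher and 23.3% lower. Without wells B2 and A7, 15 members were higher and 6 lower, and 5470 of 11373 genes were called. The median log2 fold change of the members was 0.13, beside -0.0045 for all tested genes. The shares differed between branches: 11 of the 22 sterol and regulatory members were higher and 2 lower, and of the 9 fatty acid members 2 were higher and 4 lower. No direct test of that difference was made. In bulk RNA, a change in the number of cells that express a gene and a change in RNA per cell cannot be told apart.

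**Figure D1:**
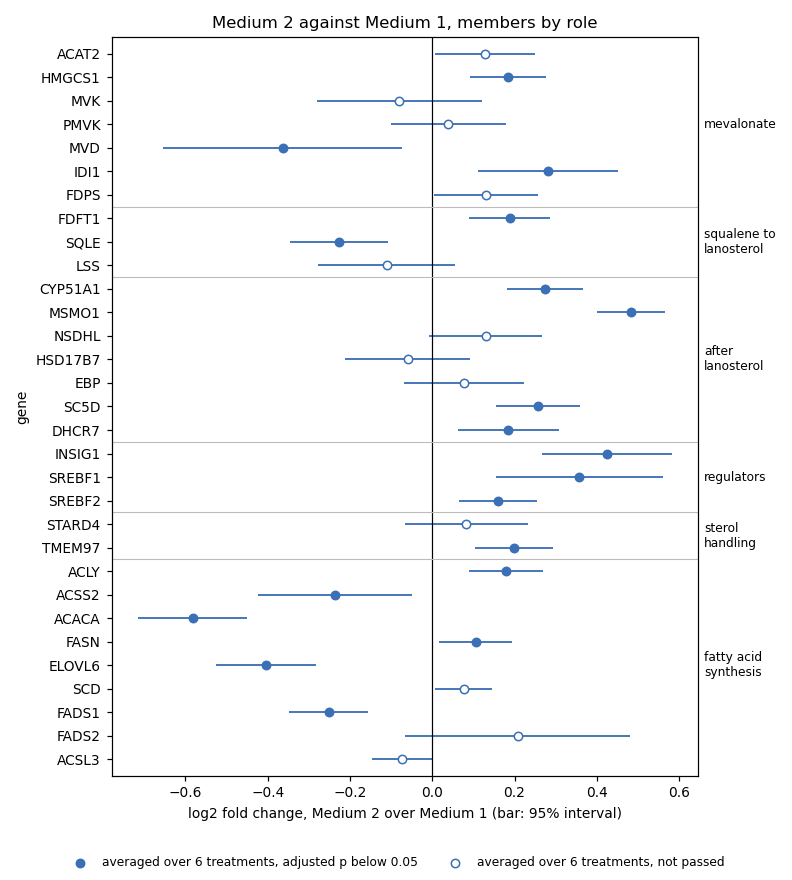
Log2 fold change of Medium 2 over Medium 1 for the 31 members, averaged over 6 treatments, with points for the estimate, bars for its 95% interval and filled points for an adjusted p below 0.05. All 3 regulators and 4 of the 7 enzymes after lanosterol lie to the right of 0 as filled points, and 4 of the 9 fatty acid genes lie to the left.

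Of the 7 enzymes after lanosterol, 4 were higher in Medium 2 and none lower. MSMO1, a sterol C4-methyl oxidase (chr4:165327669-165343164, GRCh38), had 192 to 312 CPM in Medium 1 with a median of 228, and 263 to 403 in Medium 2 with a median of 330.4. The ranges overlapped between 263 and 312 CPM, and the median of each medium lay outside the range of the other. Its log2 fold change was 0.48 (SE 0.04, adjusted p = 3.71e-15), the smallest p of any member. CYP51A1, the lanosterol 14-demethylase (chr7:92112153-92134803), ran from 133 to 284 CPM with a median of 235 in Medium 1 and from 176 to 343 with a median of 272 in Medium 2, and rose by 0.27 (SE 0.05, adjusted p = 1.48e-06). Its ranges overlapped over most of their span. SC5D, a sterol desaturase, rose by 0.26 (SE 0.05, adjusted p = 3.07e-05) from a median of 73.3 to 86.1 CPM, and DHCR7, which makes cholesterol in the last step of one branch, by 0.19 (adjusted p = 0.0110). NSDHL, HSD17B7 and EBP, the sterol isomerase, did not pass, with estimates from -0.06 to 0.13.

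All 3 regulators were higher in Medium 2 in this average. INSIG1 (chr7:155297878-155310235), which retains SCAP, had 87.4 to 256 CPM in Medium 1 with a median of 194, and 163 to 373 in Medium 2 with a median of 239. Its rise of 0.42 (SE 0.08, adjusted p = 9.62e-06) was the second largest among the members after MSMO1. SREBF1 (chr17:17811334-17836986) rose by 0.36 (SE 0.10, adjusted p = 0.00282), although its libraries overlapped almost completely, from 25.1 to 137 CPM with a median of 70.8 in Medium 1 and from 26.7 to 116 with a median of 87.1 in Medium 2. SREBF2 (chr22:41833105-41907305) had medians of 126 and 140.2 CPM, within ranges of 92.9 to 158 and 111 to 182, and rose by 0.16 (SE 0.05, adjusted p = 0.00393).

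The earlier steps were mixed. In the mevalonate pathway HMGCS1, which makes HMG-CoA, rose by 0.18 (SE 0.05, adjusted p = 0.000706), from a median of 423 CPM within 310.5 to 601 to a median of 483 within 311 to 626. The isomerase IDI1 rose by 0.28 (SE 0.08, adjusted p = 0.00492) and MVD fell by 0.36 (SE 0.15, adjusted p = 0.0349). The MVD call was lost without any of 12 single libraries, with adjusted p up to 0.0733. ACAT2, MVK, PMVK and FDPS did not pass, with estimates between -0.08 and 0.13. Past farnesyl diphosphate, FDFT1 rose by 0.19 (SE 0.05, adjusted p = 0.00126) while SQLE, the squalene epoxidase and a rate-limiting step, fell by 0.23 (SE 0.06, adjusted p = 0.00137), from 59.9 ± 9.73 to 51.4 ± 6.85 CPM (SD, n = 30). LSS, the lanosterol synthase, did not pass at -0.11 (SE 0.08). Thus neighbouring enzymes of the same linear route were called in opposite directions.

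Of the 9 fatty acid genes, 4 were lower in Medium 2, 2 were higher and 3 did not pass. ACACA (chr17:37084992-37406836), the acetyl-CoA carboxylase that makes malonyl-CoA, fell by 0.58 (SE 0.07, adjusted p = 7.26e-11), from 91.4 to 178 CPM with a median of 122 in Medium 1 to 43.7 to 133 with a median of 83.7 in Medium 2. ELOVL6 (chr4:110045846-110199202), which lengthens palmitate, had 45.96 to 90.8 CPM with a median of 66.9 in Medium 1 and 38.1 to 65.3 with a median of 51.3 in Medium 2, a fall of 0.40 (SE 0.06, adjusted p = 1.31e-07). FADS1, a desaturase of polyunsaturated fatty acids, fell by 0.25 (SE 0.05, adjusted p = 1.64e-05), with medians of 80.2 and 67.7 CPM in ranges of 57.98 to 99.7 and 47.8 to 85.8. In each of these genes the ranges of the media overlapped, while the medians were lower in Medium 2. ACSS2, which makes acetyl-CoA from acetate, fell by 0.24 (SE 0.09, adjusted p = 0.0326), a call lost without any of 9 single libraries and, with no filter on low counts, at an adjusted p of 0.0524.

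The remaining fatty acid genes pointed up or were not called. ACLY, which makes cytosolic acetyl-CoA from citrate, had medians of 425 and 482 CPM in ranges of 280.2 to 534 and 399 to 589, and rose by 0.18 (SE 0.05, adjusted p = 0.000872). FASN had 550.0 ± 70.7 and 594 ± 86.6 CPM and passed narrowly at 0.11 (SE 0.04, adjusted p = 0.0457), a call lost without any of 25 single libraries, with DESeq2, with RLE scaling and with no filter on low counts. SCD, at 1457 ± 128 and 1536 ± 143 CPM, did not pass at 0.08 (SE 0.03, adjusted p = 0.0642), but did without wells B2 and A7. FADS2 and the acyl-CoA ligase ACSL3 did not pass, at 0.21 (SE 0.14) and -0.07 (SE 0.04). Of the sterol-handling genes, TMEM97, a membrane protein that binds sterols, rose by 0.20 (SE 0.05, adjusted p = 0.000386), from a median of 112 CPM within 88.1 to 136 to one of 127 within 89.0 to 179.6. STARD4, a sterol carrier, did not pass at 0.08 (SE 0.07).

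The promoters of 4 members that rose in this comparison are shown because the group is defined by control through SREBPs, whose sites often lie near a CCAAT box bound by NF-Y. Each sequence is the 250 bases before the RefSeq transcript start in GRCh38.p14, written 5' to 3' on the gene's strand. Capitals mark every match, on either strand, to TCACNCCAC (the SREBP site of classical sterol genes), to its core CACNCCAC, or to CCAAT, whose reverse complement reads ATTGG.
MSMO1 (chr4:165327419-165327668, + strand): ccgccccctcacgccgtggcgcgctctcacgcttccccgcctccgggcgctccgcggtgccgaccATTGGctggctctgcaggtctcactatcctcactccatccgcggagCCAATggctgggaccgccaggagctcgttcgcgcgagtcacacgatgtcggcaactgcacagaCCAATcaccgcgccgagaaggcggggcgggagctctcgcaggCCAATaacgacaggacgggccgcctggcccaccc
INSIG1 (chr7:155297628-155297877, + strand): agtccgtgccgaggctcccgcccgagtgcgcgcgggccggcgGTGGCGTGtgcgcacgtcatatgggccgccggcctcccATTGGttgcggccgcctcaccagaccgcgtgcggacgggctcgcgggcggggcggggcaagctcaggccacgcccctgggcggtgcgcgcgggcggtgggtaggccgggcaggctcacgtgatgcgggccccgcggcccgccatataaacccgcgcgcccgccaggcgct
HMGCS1 (chr5:43313413-43313662, - strand): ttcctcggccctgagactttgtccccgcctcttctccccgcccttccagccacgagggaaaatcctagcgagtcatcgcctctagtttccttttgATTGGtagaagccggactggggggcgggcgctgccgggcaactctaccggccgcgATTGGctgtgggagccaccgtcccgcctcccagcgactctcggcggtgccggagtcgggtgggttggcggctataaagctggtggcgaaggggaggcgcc
SREBF2 (chr22:41832855-41833104, + strand): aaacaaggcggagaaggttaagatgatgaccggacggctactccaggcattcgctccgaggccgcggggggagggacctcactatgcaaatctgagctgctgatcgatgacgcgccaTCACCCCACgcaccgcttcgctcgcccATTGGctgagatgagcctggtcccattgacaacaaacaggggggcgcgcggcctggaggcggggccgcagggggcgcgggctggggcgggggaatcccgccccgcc

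MSMO1 held 4 CCAAT matches, at 185, 139, 76 and 34 bases before the start, and HMGCS1 held 2, at 155 and 100 bases. INSIG1 held a CACNCCAC match at 208 bases and a CCAAT match at 170. SREBF2 alone held the longer TCACNCCAC, at 133 bases, which overlaps the core match at 132, with a CCAAT match at 106. Of the 31 members, 27 were in the RefSeq table, with 37 start sites, and ACAT2, FASN, FDFT1 and SQLE were not. CCAAT was found in 25 of the members' 37 windows, or 67.6%, against 11240 of all 35116 windows, CACNCCAC in 16.2% against 4.87%, and TCACNCCAC in 2.7% against 0.883%. These shares are a description of letters in 250 bases and are not evidence of binding. A match to CCAAT also occurred before genes that fell, ACACA and ACSS2 among them.

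In untreated spheroids alone, with 5 libraries a medium, 3 members passed: MSMO1 was higher in Medium 2, and ACACA and ELOVL6 were lower. Among all tested genes 6.38% were called, 2.69% higher and 3.69% lower. Without wells B2 and A7, 2 members were higher and 2 lower, and 866 of 11373 genes were called. MSMO1 had 252, 263, 263, 269 and 312 CPM in Medium 1 and 323, 328, 349, 365 and 403 in Medium 2, so the groups did not overlap. Leaving out well B5, the highest of these, raised its adjusted p from 0.0118 to 0.0522. ACACA had 107, 115, 121, 122 and 156 CPM against 64.7, 67.4, 67.6, 85.8 and 97.7, again without overlap, and fell by 0.69 (SE 0.16, adjusted p = 0.00392). ELOVL6 had 55.6, 61.1, 68.7, 71.8 and 79.9 CPM against 41.8, 45.1, 49.1, 50.9 and 52.8, and fell by 0.50 (SE 0.15, adjusted p = 0.0326). Its call was lost without any of wells A1, B1, E1, G4, H4, A5 and C5, with the plate row as a term (adjusted p = 0.0547) and with no filter on low counts (adjusted p = 0.0781).

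The groups of TMEM97 and FADS1 did not overlap either, but their adjusted p of 0.0674 and 0.250 did not pass. Non-overlap was thus seen in 5 of 31 members, beside 8.45% of all tested genes. The regulators pointed the same way as in the average without passing. INSIG1 had 187, 198, 199, 231 and 251 CPM in Medium 1 and 228, 279, 297, 306 and 351 in Medium 2, where only the lowest library fell within the range of Medium 1. SREBF1 had 60.6, 75.6, 77.4, 78.7 and 79.5 CPM against 72.0, 77.2, 83.9, 105 and 116, and SREBF2 111, 128, 131, 133 and 136 against 130.1, 143, 145, 146 and 171. The media overlapped in both genes.

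**Figure D2:**
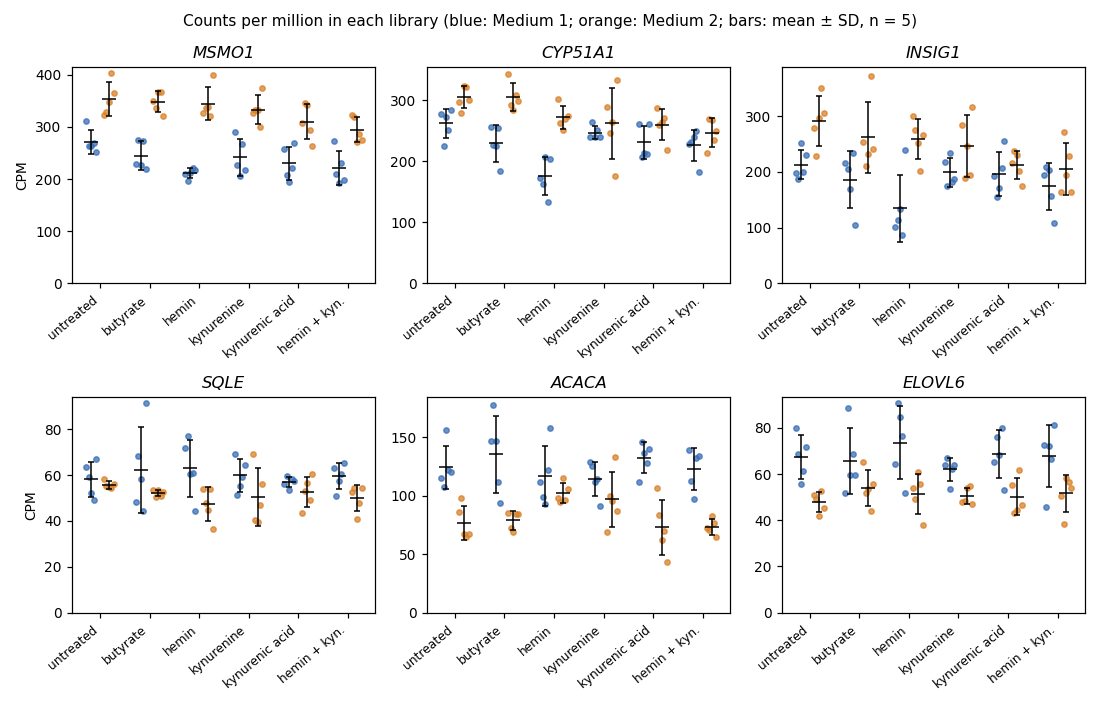
CPM of 6 members in each library, by treatment and medium, with bars for the group mean ± SD (n = 5). MSMO1 is higher in Medium 2 under every treatment, ACACA and ELOVL6 are lower on average, and CYP51A1 and INSIG1 are lowest in the hemin group of Medium 1.

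The medium difference was then measured within each of the 5 exposures. Summed over these, 17 calls of members were higher in Medium 2 and 12 lower, spread very unequally. With hemin, 8 members were higher and 4 lower, where 23.9% of all tested genes were called, 12.6% higher and 11.4% lower. With hemin plus kynurenine, 4 were higher and 4 lower, beside 8.02% and 8.32% (16.3% in all). With butyrate, 3 were higher and 2 lower, beside 4.51% and 5.37% (9.89% in all). Kynurenic acid gave 1 higher and 2 lower, beside 4.3% and 4.26% (8.56% in all), and kynurenine gave 1 higher, beside 3.73%, and none lower, beside 4.28% (8.01% in all, and 12.9% of members had an unadjusted p below 0.05, against 22.2% of all genes). Without wells B2 and A7, 9 members were higher with hemin (2998 of 11373 genes called), 4 with butyrate (1188 called) and 2 with kynurenine (892 called), and the other counts within exposures were the same. These comparisons use separate libraries and are not tests of a difference between exposures.

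MSMO1 passed under all 6 treatments, with log2 fold changes of 0.38 untreated, 0.41 with hemin plus kynurenine, 0.43 with kynurenic acid, 0.46 with kynurenine, 0.51 with butyrate and 0.70 with hemin. The kynurenine call, the only one among members for that exposure, was lost when only the groups compared were fitted (adjusted p = 0.0580). Its group means ran from 212 ± 9.37 CPM (SD, n = 5) with hemin to 272 ± 23.3 untreated in Medium 1, and from 295 ± 24.5 with hemin plus kynurenine to 354 ± 32.4 untreated in Medium 2. ACACA passed untreated and with butyrate (-0.78), kynurenic acid (-0.86) and hemin plus kynurenine (-0.74), and all 4 of these comparisons were free of overlap. In that order, 5, 6, 1 and 2 of the 31 members were free of overlap, beside 8.45%, 7.5%, 8.29% and 11.2% of all tested genes. With hemin and with kynurenine ACACA did not pass, at -0.19 and -0.24. ELOVL6 passed with hemin (-0.51, adjusted p = 0.00933) and near the threshold with kynurenic acid (adjusted p = 0.0486) and hemin plus kynurenine (adjusted p = 0.0496), calls that were lost in 39 and 45 of 60 fits that each left out 1 library.

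**Figure D3:**
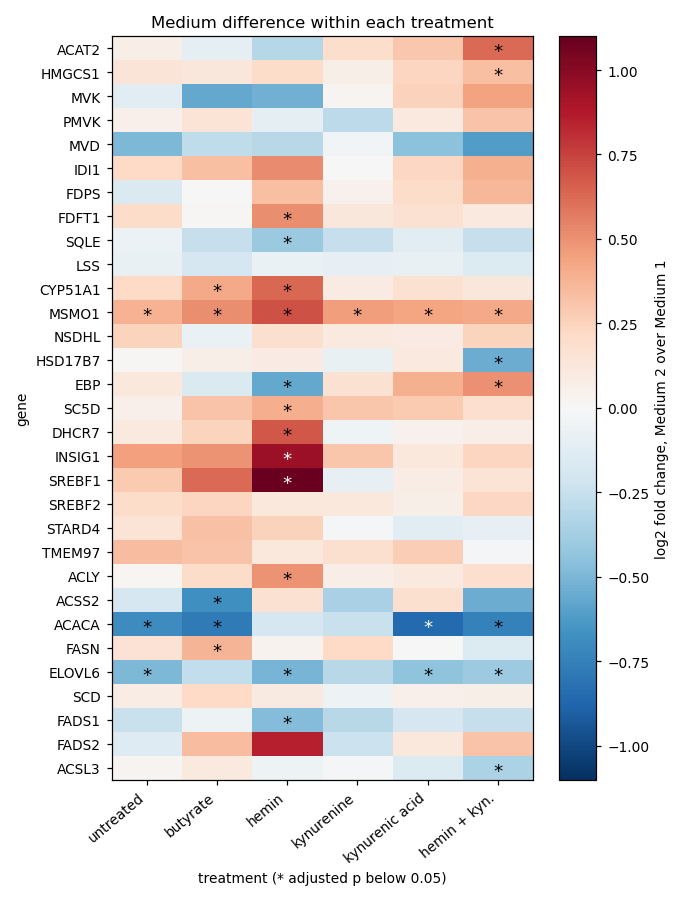
Log2 fold change of Medium 2 over Medium 1 for each member (rows) within each treatment (columns), in colour, with an asterisk for an adjusted p below 0.05. The MSMO1 row is marked in all 6 columns, and the hemin column holds 12 marks.

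The 8 members higher in Medium 2 with hemin were mostly sterol genes and regulators. SREBF1 differed most, at 25.1, 39.2, 45.7, 51.2 and 75.1 CPM in Medium 1 and 80.8, 96.8, 107, 107 and 113 in Medium 2, a rise of 1.09 (SE 0.25, adjusted p = 0.00125). The highest of the hemin libraries in Medium 1, well G2, lay just under the lowest of Medium 2. INSIG1 rose by 0.94 (SE 0.20, adjusted p = 0.000337), DHCR7 by 0.68 (adjusted p = 0.000823), CYP51A1 by 0.63 (adjusted p = 5.7e-05), FDFT1 by 0.51 (adjusted p = 0.00142), ACLY by 0.49 (adjusted p = 0.000992) and SC5D by 0.40 (adjusted p = 0.0162). EBP was lower at -0.57 (adjusted p = 0.0175), FADS1 at -0.47 (adjusted p = 0.00264) and SQLE at -0.41 (adjusted p = 0.0361). The SC5D call was lost without D2, F2 or D6, that of SQLE without C2, D2, B6, C6 or E6, and that of ELOVL6 without D2. With no filter on low counts and with only the groups compared, the SC5D and SQLE calls were also lost. That of SQLE was lost with the plate row as a term too (adjusted p = 0.0510). In 6 members the groups did not overlap, beside 12.2% of all tested genes.

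EBP was called in opposite directions in these comparisons. It was lower in Medium 2 with hemin, at 80.3 ± 11.4 against 119 ± 32.3 CPM (SD, n = 5), and higher with hemin plus kynurenine, at 126 ± 29.1 against 88.3 ± 14.6 (log2 fold change 0.51, adjusted p = 0.0395). The first call was lost without well C2 (adjusted p = 0.1102) and the second without any of 7 single libraries or with the plate row as a term (adjusted p = 0.0726). With hemin plus kynurenine ACAT2, which condenses acetyl-CoA at the head of the mevalonate pathway, also rose, by 0.63 (SE 0.15, adjusted p = 0.00199), from 67.6, 73.0, 87.2, 87.8 and 93.3 CPM to 108, 112, 120.4, 121 and 171 without overlap (2 members there, beside 11.2% of all tested genes). HMGCS1 rose there by 0.33 (adjusted p = 0.0335, lost without any of 5 single libraries), and ACSL3 fell by 0.35 (adjusted p = 0.00459). The HMGCS1 call was also lost with no filter on low counts, with the plate row as a term and with only the groups compared (adjusted p up to 0.0823). HSD17B7, whose counts are uncertain, was lower at -0.54 (adjusted p = 0.0295), a call lost without any of 5 single libraries, with no filter on low counts and with only the groups compared. The ACSL3 call was also lost with only the groups compared.

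With butyrate, CYP51A1 was higher in Medium 2 by 0.42 (SE 0.11, adjusted p = 0.0111), at 305 ± 22.9 against 229 ± 29.7 CPM, a call lost without well B2 alone (adjusted p = 0.0510). FASN was higher by 0.38 (adjusted p = 0.0186), lost without any of wells F1, H1, D5 and F5, and ACSS2 lower by -0.68 (adjusted p = 0.0452), lost in 11 of 60 fits that left out 1 library. With the plate row as a term and with only the groups compared, the FASN and ACSS2 calls were also lost (adjusted p up to 0.127). That of ACSS2 was lost with no filter on low counts too.

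The exposures were next compared with untreated spheroids of the same medium. The 5 exposures in a medium share 1 untreated group, so that an unusual library in it enters all 5 comparisons. A single member passed in the 10 comparisons, CYP51A1 with hemin in Medium 1, where 0.133% of all tested genes were called, 0.0443% higher and 0.0885% lower. It had 225, 251, 273, 278 and 284 CPM untreated and 133, 163, 172, 203 and 207 with hemin, which did not overlap (2 members, beside 3.38% of all tested genes). The fitted value fell by 0.58 on the log2 scale (SE 0.11, adjusted p = 0.0230). The call was lost with the plate row as a term (adjusted p = 0.137) and without any of wells A1, C1, E1, C2, D2 and F2, with adjusted p up to 0.215.

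Other members lay near the threshold in that comparison. An unadjusted p below 0.05 was reached by 12 of 31 members, or 38.7%, against 21.5% of all tested genes, and 10 of the 12 were negative. Among them were HMGCS1 at -0.42, ACLY at -0.41 and MSMO1 at -0.36 (adjusted p = 0.0581 for each), INSIG1 at -0.67 (adjusted p = 0.0637), DHCR7 at -0.48 (adjusted p = 0.0745), IDI1 at -0.54 and SREBF1 at -0.65. The positive ones were EBP at 0.49 (adjusted p = 0.0985) and MVK at 0.62 (adjusted p = 0.124). MSMO1 had 197, 210.4, 212, 218 and 221 CPM with hemin, all under the lowest untreated library of 252. HMGCS1 had 310.5, 313, 372, 398 and 451 CPM with hemin against 444, 460.1, 473, 489 and 601 untreated, where 1 hemin library lay within the untreated range.

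The count of members called here turned on single libraries. Well G2, a hemin library, lay within the untreated range for some members and below it for others. Its INSIG1 was 239 CPM while the other hemin libraries had 87.4, 100.2, 113 and 134, and its EBP was 79.8 CPM while the others had 102, 117, 129 and 167. Its MSMO1 of 218 CPM, CYP51A1 of 203 and HMGCS1 of 372 lay below every untreated library. Without this library, 7 members were lower (ACLY, CYP51A1, DHCR7, HMGCS1, INSIG1, MSMO1 and SREBF1) and 2 higher (EBP and MVK), and the number of all genes called went from 15 to 1205. Without wells B2 and A7, which belong to other groups, 6 members were lower and EBP higher, and 755 of 11373 genes were called. DESeq2's Wald test on all libraries called 6 lower (ACLY, CYP51A1, DHCR7, HMGCS1, INSIG1 and MSMO1), among 568 of 7136 genes with an adjusted p. Without A1, C1, E1, C2, D2 or F2 in turn, none was called.

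**Figure D4:**
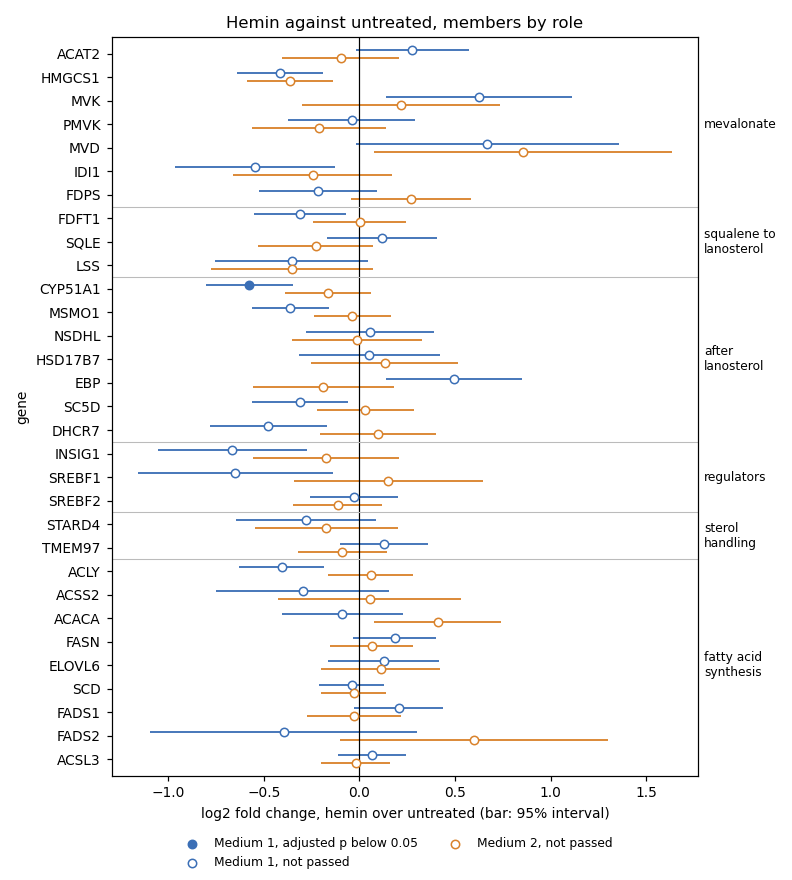
Log2 fold change of hemin over untreated spheroids for the 31 members in each medium, with bars for the 95% interval and a filled point for an adjusted p below 0.05. CYP51A1 in Medium 1 is the single filled point, and all 3 regulators of Medium 1 lie to the left of 0 while EBP and MVK lie to the right.

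In Medium 2 hemin gave no member past the threshold by edgeR or DESeq2, and 0% of all tested genes were called by edgeR. An unadjusted p below 0.05 was reached by 3 members, or 9.68%, near the 7.57% of all tested genes. HMGCS1 had the lowest p, at 397, 399, 409, 440.1 and 473 CPM with hemin against 492, 497, 551, 557 and 626 untreated, which did not overlap (2 members, with SQLE, beside 1.66% of all tested genes; log2 fold change -0.36, SE 0.11, unadjusted p = 0.00215, adjusted p = 0.478). CYP51A1 stood at -0.17 and MSMO1 at -0.04 in this medium. Whether the response to hemin differed between media was tested directly as an interaction, and no member passed (0% of all tested genes did). An unadjusted p below 0.05 was reached by 9 members, or 29%, against 13.3% of all genes. ACLY had the lowest adjusted p at 0.233 (difference 0.47, 95% interval 0.15 to 0.78), and the difference for CYP51A1 was 0.41 (95% interval 0.09 to 0.73, adjusted p = 0.274).

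Hemin with kynurenine gave no member past the threshold in Medium 1, where 0.0266% of all tested genes were called, or in Medium 2, where 0.558% were (0.31% higher and 0.248% lower). At an unadjusted p below 0.05 there were 6 and 9 members, or 19.4% and 29%, against 4.97% and 13.6% of all tested genes. In Medium 2 these included ACAT2 at 0.44 and EBP at 0.45 on the higher side, and INSIG1 at -0.51, CYP51A1 at -0.30, FASN at -0.29 and MSMO1 at -0.26 on the lower. FASN had 443, 471, 499, 511 and 526 CPM against 543, 553, 587, 652 and 666 untreated, without overlap (3 members, beside 3.8% of all tested genes). Whether the combination differed from its 2 agents added together was tested on the log2 scale, and no member was called in either medium (0% of all tested genes in each, with 4 and 6 members at an unadjusted p below 0.05, or 12.9% and 19.4%, against 8.51% and 12.5% of all genes), with the smallest adjusted p at 0.171 for HMGCS1 (0.56) and ACACA (-0.80) in Medium 2. Without well F6, a kynurenine library, these 2 members passed, among 161 genes called.

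With butyrate, kynurenine and kynurenic acid, no member passed in either medium, where 0.00885%, 0.0354% and 0% of all tested genes were called in Medium 1 and 0%, 0.0266% and 0.0177% in Medium 2. An unadjusted p below 0.05 was reached by 2, 2 and 2 members in Medium 1 and by 1, 3 and 4 in Medium 2. Each 2 of 31 is 6.45%, beside 8.54%, 3.79% and 3.27% of all tested genes in Medium 1, and the counts in Medium 2 are 3.23%, 9.68% and 12.9%, beside 3.55%, 6.92% and 7.97%. HMGCS1 with kynurenic acid in Medium 1 stood at -0.30 on the log2 scale (adjusted p = 0.999, 95% interval -0.53 to -0.08) at 400.4 ± 30.9 against 493 ± 62.3 CPM, and its libraries did not overlap with the untreated ones (1 member, beside 0.637% of all tested genes). HMGCS1 was free of overlap with kynurenine in Medium 1 too, at 397 to 439.6 CPM, under the lowest untreated library of 443.6 (1 member, beside 1.12% of all tested genes). DESeq2 also called no member with butyrate, kynurenine or kynurenic acid. The interactions of butyrate, kynurenine and kynurenic acid with the medium gave 0 members at an unadjusted p below 0.05. Over all tested genes that share was 4.28%, 3.7% and 4.63%. The interaction of hemin plus kynurenine gave 6 members, or 19.4% against 8.68% of all tested genes. No member passed the adjusted threshold in any of these interactions (0%, 0.0177%, 0% and 0.0266% of all tested genes called, in that order).

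Kynurenic acid and kynurenine, which differ in the side chain of kynurenine being closed into a ring, were compared directly at the same dose and times. This was 1 pair of compounds in 2 media. No member passed (0.0354% and 0.00885% of all tested genes called), and 1 member in each medium had an unadjusted p below 0.05: SCD in Medium 1, at 1404 ± 107 CPM with kynurenic acid against 1595 ± 102 with kynurenine (-0.18, 95% interval -0.35 to -0.01), and ACACA in Medium 2, at 73.1 ± 23.6 against 96.9 ± 23.5 (-0.40, 95% interval -0.74 to -0.07). Over the members the 95% intervals of the difference reached from -0.93 to 0.63 in Medium 1 and from -1.41 to 1.006 in Medium 2, with both ends set by the low-count genes MVD and FADS2. These intervals do not show that the compounds act alike.

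Summed over the 17 sterol enzymes, untreated spheroids of Medium 1 had 2240.2 to 2745 CPM and hemin-treated ones 1851 to 2228, which did not overlap. The other groups of Medium 1 lay between 1832 and 2689, and Medium 2 between 2276 and 2987, with medians over 30 libraries of 2255 and 2553. These sums weigh abundant enzymes most. The mean log2 CPM of the same enzymes, which weighs each alike, did overlap in Medium 1. It was 6.18 to 6.46 untreated and 6.14 to 6.32 with hemin. The 9 fatty acid genes summed to 2787 to 3314 CPM in Medium 1 and 2705 to 3591 in Medium 2. Across the 30 libraries of Medium 1 no relation between the 2 sums was detected (Pearson's r = 0.137, permutation p = 0.469; Spearman's rho = 0.167, p = 0.38; r = -0.00883 without the 2 libraries farthest from the median). Across those of Medium 2 they rose together (r = 0.441, permutation p = 0.0152, adjusted over 4 relations 0.0203; rho = 0.5, p = 0.00557, adjusted 0.00873; r = 0.645 without wells H7 and B5). The 4 relations include those of EBP and INSIG1 below, a pair chosen after its values were seen. Their small p make these adjusted values lower than an adjustment over the sums alone would. Both sums share each library's scaling, and the libraries of a medium come from 6 treatments. The relation in Medium 2 holds for the sums, where SCD, at a mean of 1497 CPM, weighs most among the fatty acid genes. No relation was computed between the equally weighted means. By mean log2 CPM of the sterol enzymes, H7 was the highest library of Medium 2 at 6.53 and E6 the lowest at 6.19. Their means for the fatty acid genes were 6.86 and 6.90.

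EBP and INSIG1 ran against each other from library to library. The pair was chosen after its values were seen, so the relation is given as a description. Pearson's r was -0.753 in Medium 1 and -0.512 in Medium 2 (Spearman's rho -0.748 and -0.489, 30 libraries each). Without the 2 libraries farthest from the median of EBP, it was -0.732 in Medium 1 and -0.354 in Medium 2, so that in Medium 2 it rests in large part on wells H7 and G7. High EBP with low INSIG1 was found in several treatments: 181 and 104 CPM in well B2 (butyrate), 167 and 100.2 in C2 (hemin), 113 and 108 in F4 (hemin plus kynurenine), 154 and 174 in G7 (kynurenic acid) and 173 and 164 in H7 (hemin plus kynurenine). High EBP was also found without low INSIG1 in Medium 2, at 131 and 284 CPM in F6 (kynurenine) and 122 and 272 in A8 (hemin plus kynurenine). The value of -0.732 in Medium 1 is that without B2 and C2.

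**Figure D5:**
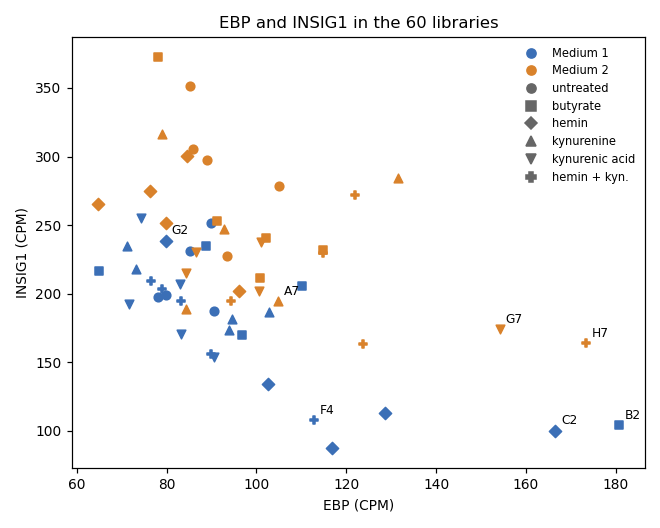
INSIG1 against EBP in CPM for the 60 libraries, with colour for the medium, symbols for the treatment and labels for some wells named in the text. B2, H7, C2 and G7, the libraries with the highest EBP, lie at the lower right and belong to several treatments. Not every library with high EBP lies low, as F6 (kynurenine, Medium 2) has 131 CPM of EBP and 284 of INSIG1. The hemin library G2 lies among the untreated ones.

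Other genes of the pathway were taken from a list of 57, of which 53 were tested. In the comparison averaged over treatments 7 were higher in Medium 2 and 16 lower, with a median log2 fold change of -0.08. Over all tested genes 46.1% were called, 22.8% higher and 23.3% lower, with a median of -0.0045. The 6 with the smallest p all fell: VPS13A, a lipid transfer protein, by 1.69 (adjusted p = 1.73e-21), the carnitine palmitoyltransferase CPT1A by 0.52, the phosphatidate phosphatase LPIN1 by 0.60, the desaturase relative FADS3 by 0.38, the carbohydrate-responsive factor MLXIPL by 0.89 and MYLIP, a ligase that targets lipoprotein receptors, by 0.78. SCAP was level at -0.02 (SE 0.07, adjusted p = 0.823), with medians of 46.8 and 47.1 CPM.

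INSIG2 is the relative of INSIG1 that is not driven by SREBPs in the same way. While INSIG1 rose in the average over treatments, INSIG2 fell by 0.36 (SE 0.09, adjusted p = 0.000536). Its group means lay between 18.9 and 29.1 CPM in 11 groups, and at 49.3 ± 15.4 (SD, n = 5) with kynurenine in Medium 1. Those libraries ran from 36.3 to 72.3 CPM against 12.8 to 37.95 untreated, with an overlap between 36.3 and 37.95, and the rise was 0.96 (SE 0.20, adjusted p = 0.0367). That call was lost in 7 of 66 alternative fits, with adjusted p up to 0.466. With kynurenine INSIG2 was lower in Medium 2, at -1.20 (adjusted p = 5.41e-05). With hemin it was called lower too, at means of 18.9 against 29.1 CPM. The hemin call was lost in 7 of 66 alternative fits, with adjusted p up to 0.0641. Means with butyrate and with kynurenic acid were also lower in Medium 2. The fall was not seen in every treatment. Untreated means were 28.02 CPM in Medium 2 and 25.19 in Medium 1, and those with hemin plus kynurenine 22.14 and 22.01.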

How the data were processed

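Libraries were made from 48 ng of RNA with a 3' kit that adds unique molecular identifiers and 18 PCR cycles, per the labels' protocols. The authors deposited a table of estimated counts per gene for all 60 libraries. The submitters' processing notes name the build GRCh38 and the tools Salmon 1.5.2, STAR, cutadapt 3.4, UMI-tools 1.1.2 and FastQC 0.11.9, without saying which step used which setting. Of the deposited values 10.09% were not whole, and all were rounded to whole numbers. For the members, a count was taken as fractional if it lay more than 0.01 from a whole number. Column names give group and well, and 0 columns could not be mapped.

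Genes were kept by edgeR's filter (minimum count 10, minimum total 15), scaled by TMM and fitted with 12 group means (48 residual degrees of freedom) by edgeR 4.0.16's quasi-likelihood test in R 4.3.3. The 26 contrasts were each adjusted by Benjamini-Hochberg over 11298 genes, with a threshold of 0.05 and 95% intervals. Scripts were tested on simulated data. Alternatives were RLE scaling, no filter, plate row as a term, DESeq2 1.42.0, leaving out wells B2 and A7, fitting only the groups compared, and leaving out each of 60 libraries. Correlations used 100000 permutations (scipy 1.17.1, two-sided).

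The members, the lists and the alternatives were chosen with earlier results of these data known. Members were named with their values if they passed in a medium, exposure or interaction contrast, with HMGCS1, SQLE, INSIG1, SREBF1, SREBF2, FASN and SCD whatever their result. Of other pathway genes, the 6 with the smallest p and INSIG2 and SCAP were named.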

Additional observations from a re-analysis of the deposited data

Results flagged for a closer look

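In 10 of 156 tests, 1 library stood apart from the other 4 of its group by Dixon's test, which chance alone does in about 1 of 20 groups. In untreated spheroids of Medium 1, well A1 was high for MSMO1, at 312.0 CPM against 251.8 to 268.8 in the others, and for HMGCS1, at 600.6 against 443.6 to 489.1. Well B1 of that group was high for FADS1, at 89.55 against 72.31 to 74.58, and low for SREBF1, at 60.6 against 75.56 to 79.47. With kynurenic acid in Medium 2, well G7 was high for EBP, at 154.1 against 84.35 to 101.1, and low for ACLY, at 407.2 against 481.7 to 498.2, and well F7 was low for TMEM97, at 107.2 against 127.4 to 133.7. MSMO1 was high in well E6 (hemin, Medium 2), at 399.2 against 321.9 to 338.2. INSIG1 was high in well G5 (butyrate, Medium 2), at 372.7 against 211.4 to 253.4. SC5D was high in well D3 (kynurenine, Medium 1), at 78.86 against 70.53 to 71.91.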

How the results depend on the processing

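No result changed direction past its threshold under any alternative run. Averaged over treatments, 12 to 15 members were higher in Medium 2 and 4 to 6 lower over all settings, and 16 of the 19 calls held in every fit. In untreated spheroids the member higher became 2 without wells B2 and A7 and 3 with only the groups compared, and 0 to 2 when single libraries were left out. The 2 lower became 1 with no filter and 1 with the plate row as a term, and 1 to 2 without single libraries. All genes called there were 721 of 11298 in the main fit and 1134 of 10195 with only the groups compared. They were 553 of 20391 with no filter and 673 of 11298 with the plate row. Within exposures the 12 lower calls became 7 with no filter, 6 with only the groups compared, and 8 to 14 without single libraries. For butyrate, hemin, kynurenine, kynurenic acid and hemin plus kynurenine, all genes called were 1117, 2705, 905, 967 and 1846 in the main fit. With no filter they were 864, 2276, 702, 722 and 1470, and with only the groups compared 611, 2126, 337, 926 and 1434. For exposures against untreated in Medium 1, the 1 lower call became 2 with no filter, 0 with the plate row, 6 without wells B2 and A7, 6 with DESeq2, and 0 to 7 without single libraries, and the 0 higher became 1 without wells B2 and A7 and 0 to 2 without single libraries. All genes called with hemin in Medium 1 moved as well, from 15 of 11298 to 225 of 20391 with no filter and 1 of 11298 with the plate row. They were 755 of 11373 without wells B2 and A7 and 568 of 7136 with DESeq2. The departure of the combination went from 0 to 1 higher and 0 to 1 lower without well F6. The cause of these shifts was not tested. Under alternatives, 3439 values for single genes or for the members' median counted as unchanged, while 218 single-gene values lost their call and 18 gained one. A single-gene value was unchanged if it kept its side of the threshold. A median has no threshold and was unchanged if it kept its sign and moved by no more than the members' median SE. No paired analysis was possible because the columns carry a well and no replicate number. Depth limits MVD and FADS2 most.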
